A study of Mus musculus with 6 samples.

Results

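The genes that separate the main kinds of blood monocyte were described in open chromatin of mouse white blood cells. The set held 9 genes in 3 classes: Csf1r and Lyz2, used by monocytes in general (shared), Ly6c2, F13a1 and Cd14 of the classical type, and Cx3cr1, Treml4, Ace and Cd36 of the patrolling type. Every peak whose summit lay within one of these genes or within 3 kb of one of its starts, in the GENCODE annotation of GRCm39, was taken. Peaks that overlapped between libraries were merged into regions, which gave 31 regions at the 9 genes out of 62876 in all. Of these, 5 lay at shared genes, 8 at classical genes and 18 at patrolling genes. Within a gene, regions are numbered from 5′ to 3′ along its strand.

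The assay was ATAC-seq, where Tn5 transposase cuts accessible DNA and tags it with sequencing adapters, on blood leukocytes left after lysis of red cells. The 3 control libraries came from mice kept in normal oxygen. The 3 libraries of the high-altitude de-acclimatization (HADA) group came from mice returned to normal oxygen after weeks in a low-pressure chamber that simulated high altitude. The mice of the study were male C57BL/6J, and neither group carried an engineered allele in the sources used. The cells were not sorted, the day of sampling of these libraries was not stated, and the study also calls them mononuclear cells, a preparation that would hold few neutrophils. Nothing in the labels says that the 3 libraries of a group came from separate mice, so p-values measure the spread between libraries.

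Classical monocytes of the mouse carry high Ly6C and the chemokine receptor CCR2, leave the marrow and enter inflamed tissue. Patrolling monocytes carry little Ly6C and much CX3CR1, crawl along the vessel wall, and depend on the nuclear receptor NR4A1 for their formation from classical cells. Both use the receptor encoded by Csf1r. None of the 9 genes belongs to monocytes alone: Lyz2 is also used by neutrophils, F13a1 and Cd36 by platelets and their precursors, Ly6c2 by some lymphocytes, and Cx3cr1 by NK cells and some T cells.

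The sequences around the summits on which the group comparison turns are given first, from GRCm39 and read along the strand of the gene. They reach up to 100 bp to each side of the summit, without annotated untranslated bases. They show the Ly6c2 region that was taller in HADA, the Cx3cr1 intron regions of which one was listed in control alone, the start-proximal Treml4 and upstream Lyz2 regions that were lower in HADA, and a Cd36 region listed in control alone. Capitals mark matches to the motifs searched.
Ly6c2 region 3, chr15:74988468-74988631, minus strand: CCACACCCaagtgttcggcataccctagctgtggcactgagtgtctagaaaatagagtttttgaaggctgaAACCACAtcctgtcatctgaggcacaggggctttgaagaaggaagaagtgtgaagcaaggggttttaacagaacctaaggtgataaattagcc
Cx3cr1 region 2, chr9:119887793-119887993, minus strand: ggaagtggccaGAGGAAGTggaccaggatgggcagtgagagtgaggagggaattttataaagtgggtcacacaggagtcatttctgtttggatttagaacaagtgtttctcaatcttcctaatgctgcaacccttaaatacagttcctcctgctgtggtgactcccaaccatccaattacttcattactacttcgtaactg
Cx3cr1 region 3, chr9:119883994-119884194, minus strand: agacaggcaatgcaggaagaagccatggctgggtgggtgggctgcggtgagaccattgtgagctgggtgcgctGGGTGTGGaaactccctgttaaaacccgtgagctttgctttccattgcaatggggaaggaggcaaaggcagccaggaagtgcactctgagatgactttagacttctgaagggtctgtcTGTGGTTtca
Treml4 region 1, chr17:48571015-48571215, plus strand: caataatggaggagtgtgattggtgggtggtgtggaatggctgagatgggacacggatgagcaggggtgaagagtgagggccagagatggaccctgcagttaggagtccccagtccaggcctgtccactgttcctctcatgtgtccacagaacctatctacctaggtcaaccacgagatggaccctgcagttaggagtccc
Lyz2 region 1, chr10:117121094-117121294, minus strand: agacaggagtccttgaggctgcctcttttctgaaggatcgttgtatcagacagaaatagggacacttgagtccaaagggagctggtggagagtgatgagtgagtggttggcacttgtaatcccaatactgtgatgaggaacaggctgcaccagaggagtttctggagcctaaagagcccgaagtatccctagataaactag
Cd36 region 3, chr5:18062452-18062652, minus strand: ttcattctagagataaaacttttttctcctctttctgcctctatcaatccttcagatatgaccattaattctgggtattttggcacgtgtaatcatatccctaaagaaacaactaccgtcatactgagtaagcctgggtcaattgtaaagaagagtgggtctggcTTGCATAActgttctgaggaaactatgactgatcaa

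The 6 motifs, each searched on both strands, were GAGGAAGT for PU.1, TTGCNNAA for C/EBP factors, TGANTCA for AP-1, TGTGGTT for RUNX, GGGTGTGG for KLF factors and AAAGGTCA for NR4A factors (the NBRE). PU.1 and C/EBP factors are central to the myeloid lineage. Ly6c2 region 3 and Cx3cr1 region 3 each held a KLF and a RUNX match, and Cx3cr1 region 2 held a PU.1 match. Cd36 region 3 held a C/EBP match. The Treml4 and Lyz2 stretches held none of the 6. Over all regions of the 9 genes, 10 of 31 held at least 1 motif. The PU.1 motif was in 3 of 31 (9.68%) against 4.16% of all regions, and the KLF motif in 3 of 31 (9.68%) against 2.32%. RUNX was in 4 of 31 (12.9%) against 7.13%, C/EBP in 3 of 31 (9.68%) against 8.69%, AP-1 in 1 of 31 (3.23%) against 5.52%, and the NR4A motif in 0 of 31 against 0.934%. All 3 PU.1 and all 3 C/EBP matches lay at patrolling genes, at 1 region of Cx3cr1 and 2 of Cd36 for PU.1 and at Cd36 alone for C/EBP. Patrolling genes held 18 of the 31 regions, against 8 at classical and 5 at shared genes. No class difference is read from so few regions. A match is a stretch of letters and not a measured binding site. The 50 bases at the summit occurred once in the genome for 27 of the 31 regions. The exceptions were Ly6c2 regions 1 and 4, each with 2 copies, F13a1 region 2 with 3043 and Cd36 region 9 with 1419, so reads there could not be placed with certainty.

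The lists held 34045 to 41475 peaks on the main chromosomes in control and 44044 to 45799 in HADA. The genome-wide background pileup, a proxy for depth, ranged from 1.69 to 2.05 reads across control libraries and from 1.99 to 2.34 across HADA libraries, and the smallest pileup that a list could hold at that background was 7 to 9 reads. Around an open region the local background was often higher, and a peak then needed more reads. How many is unknown where a library had no peak, so an absent peak is a height of unknown size below the list's threshold. Control 3 stood apart, with the fewest peaks in all, 7 at the B cell genes listed further on against 24 and 20 in control 1 and 2, and 20 at the neutrophil genes against 14 and 13. The height of a peak is the summit pileup, the number of fragments stacked at the summit. It was compared between libraries as log2 pileup centred on the median of the 23970 regions with a peak in all 6 libraries. Over those regions, limma called 5769 lower in HADA and 4291 higher at an adjusted p under 0.05.

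Peaks at the 9 genes were fewer in every HADA library than in any control library, although the HADA lists were longer. This was not so at the further monocyte genes described at the end, where factors and common genes had 20, 22 and 19 peaks against 28, 23 and 25, other patrolling genes 28, 26 and 24 against 28, 27 and 26, and other classical genes 7, 10 and 9 against 12, 10 and 11. At the 9 genes, control 1, 2 and 3 held 24, 24 and 22 peaks, and HADA 1, 2 and 3 held 16, 17 and 16. At patrolling genes they were 14, 15 and 12 against 7, 12 and 7, at classical genes 6, 5 and 6 against 4, 2 and 6, and at shared genes 4, 4 and 4 against 5, 3 and 3. The classes thus overlapped between groups when taken one by one. Peaks were counted by each library's own summit. At Lyz2 region 1 the peaks of control 2 and HADA 2 had summits beyond 3 kb of a start and were not counted. A peak was present in more control than HADA libraries at 16 of the 31 regions (51.6%), against 22.7% of all regions. At 6 regions HADA had more and at 9 the groups were equal. All 3 control and no HADA libraries held a peak at 3 of 31 regions (9.68%), against 1.88% of all regions, while 0 of 31 were in 3 HADA and no control libraries, against 7.01%. All 3 control-only regions were at patrolling genes: Cx3cr1 region 2, Ace region 1 and Cd36 region 3. Without HADA 3 there were 5, since F13a1 regions 1 and 2 then counted. The count fell to 1 with peaks of a −log10 q of at least 5, and to 1 with regions within 3 kb of a start alone.

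**Figure D1:**
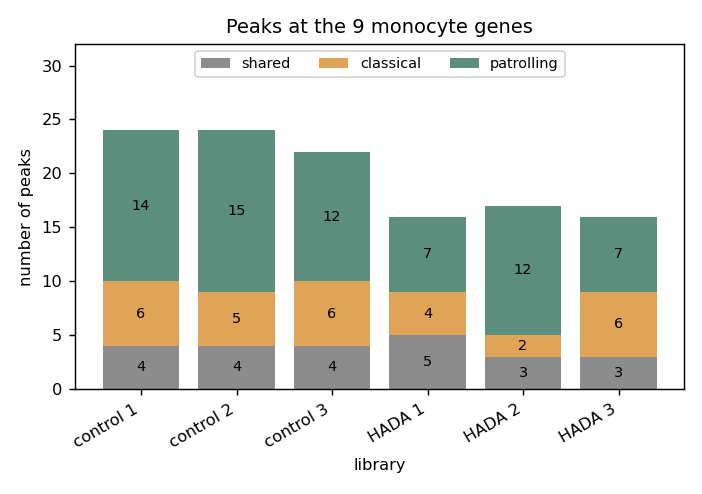
Number of peaks with a summit at the 9 monocyte genes in each library, stacked by class (grey shared, orange classical, green patrolling). The control libraries hold 22 to 24 peaks and the HADA libraries 16 or 17.

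**Figure D2:**
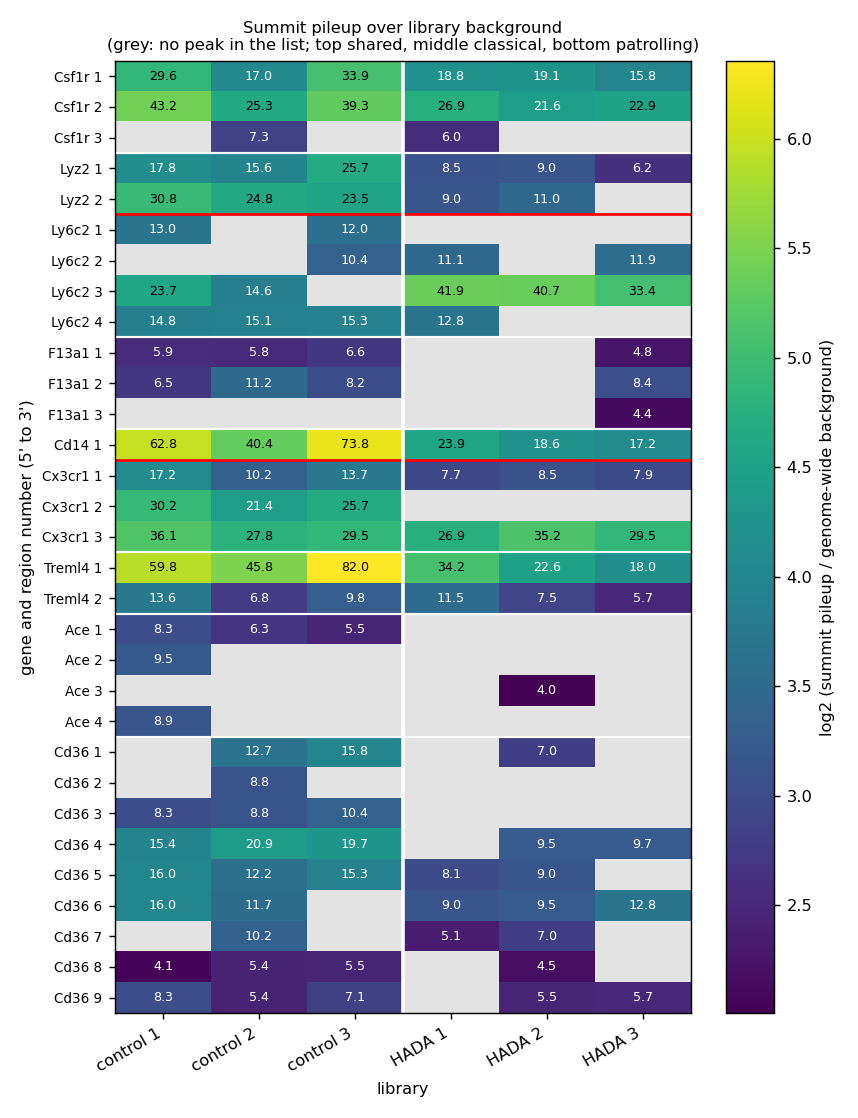
Summit pileup divided by the genome-wide background of the library, printed in each cell and coloured on a log2 scale, for the 31 regions (rows) in the 6 libraries (columns); grey cells have no peak in the list. Cx3cr1 2, Ace 1 and Cd36 3 are grey in all 3 HADA libraries, and Ly6c2 3 is tallest in HADA, at 33.4 to 41.9.

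A peak in all 6 libraries, which the height test needs, was found at 8 of the 31 regions, and these lay at 5 genes. Of the 8, limma called 6 lower in HADA (75%, against 24.1% of all regions tested), 0 higher (against 17.9%), and 2 in neither direction. All control libraries lay above all HADA libraries at 7 of 8 regions (87.5%), against 31.2% of all regions tested. The median difference was −1.03 on the log2 scale, against −0.04 over all regions tested. The called regions were both Csf1r regions, Lyz2 region 1, Cd14 region 1, Cx3cr1 region 1 and Treml4 region 1, so each class had at least 1. Without control 3 all 6 were called again. That fit also took in 2 regions that control 3 lacked, of which Ly6c2 region 3 was higher and Cd36 region 6 lower. The remaining 23 regions were absent from at least 1 list, among them every region of Ly6c2, F13a1, Ace and Cd36. In unsorted cells, fewer cells of a type and less accessibility per cell cannot be told apart.

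The measure of height decided much of this. With the pileup divided by the genome-wide background instead of centring, the median region rose by 0.34 in HADA and the split of all calls turned from 42.7% to 62.9% higher. Of the 8 monocyte regions, 4 were then lower, and both Csf1r regions were no longer called. On the rank of the deposited fold, which divides the summit by its local background, only Treml4 region 1 was called. The local background around the summit, relative to that of the library, was lower in HADA at all 8 regions, with a median log2 difference of −0.63 (range −1.37 to −0.16), against a median of 0.27 over all regions tested. That background is taken from windows that hold the peak's own reads, so it is not a separate measure of the neighbourhood.

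**Figure D3:**
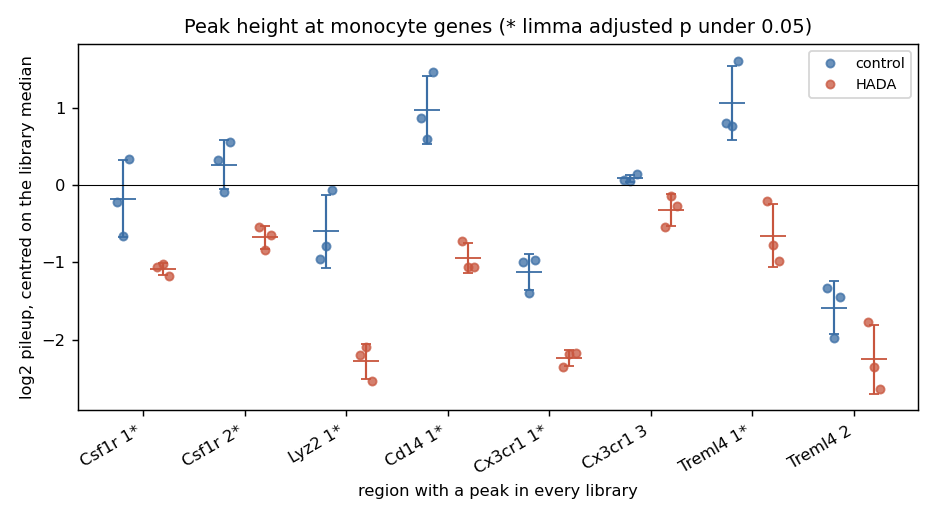
Log2 summit pileup centred on the library median (vertical axis) at the 8 monocyte regions with a peak in every library, with each library as a point and the mean and SD (n = 3) of control in blue and HADA in red. The groups are apart at every region but Treml4 2, and the widest gap is at Cd14 1, with a difference of −1.92.

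Among the shared genes, Csf1r, the receptor for colony-stimulating factor 1, lies at chr18:61229714-61266535 on the plus strand (ENSMUSG00000024621.18). Region 1 (chr18:61238600-61239210) had its summit 22 bp inside the untranslated first exon. It stood 50, 35 and 62 reads high in the control libraries against 44, 38 and 36 in HADA. These raw values overlapped, and divided by background they were 26.8 ± 8.76 and 17.9 ± 1.80 (SD, n = 3 each). The centred difference was −0.91 ± 0.25 (SE, limma adjusted p = 0.0256). Region 2 (chr18:61240822-61242069), in the first intron at 2672 bp from the main start, had 73, 52 and 72 reads in control and 63, 43 and 52 in HADA. Its difference was −0.94 ± 0.21 (SE, limma adjusted p = 0.0136), and its raw values also overlapped. Region 1 lost its call without any single HADA library (limma adjusted p = 0.0688, 0.0754 and 0.0822 without HADA 1, 2 and 3) and region 2 without HADA 2 (limma adjusted p = 0.0611). Region 3, in the last untranslated exon and also within Hmgxb3, was listed in control 2 at 15 reads and HADA 1 at 14.

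Lyz2 encodes lysozyme, an enzyme that cuts bacterial cell walls, and lies at chr10:117111557-117118346 on the minus strand (ENSMUSG00000069516.10). Region 1 (chr10:117120922-117121638), 2848 bp upstream of the nearest start, had 30, 32 and 47 reads in control and 20, 18 and 14 in HADA. The groups did not overlap on the raw scale either. Over background the region went from 19.7 ± 5.31 to 7.91 ± 1.54 (SD, n = 3 each), and the centred difference was −1.68 ± 0.26 (SE, limma adjusted p = 0.00903). Region 2 (chr10:117117557-117118283), with its summit in the first coding exon at 159 bp from the nearest start, had 52, 51 and 43 reads in control and 21 and 22 in HADA 1 and 2. It had no peak in HADA 3. In a fit that left HADA 3 out, its difference was −1.79 ± 0.22 (SE, limma adjusted p = 0.0347).

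The 3 classical genes did not move alike. Cd14, the co-receptor that hands lipopolysaccharide to Toll-like receptor 4, had a single region that spanned its start (chr18:36858518-36860902, gene chr18:36858120-36859851 on the minus strand, ENSMUSG00000051439.8). It reached 106, 83 and 135 reads in the control libraries against 56, 37 and 39 in HADA. This was the largest difference among the 8 regions tested, from 59.0 ± 17.0 to 19.9 ± 3.57 over background (SD, n = 3 each). On the centred scale it was −1.92 ± 0.25 (SE, limma adjusted p = 0.00805), which left 26.5% of the control height. Among the regions tested, its height stood on average at percentile 71.3 in control and 29.4 in HADA.

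Ly6c2, which encodes the Ly6C antigen that defines classical monocytes, went the other way at its tallest region. The gene lies at chr15:74980003-74988467 on the minus strand (ENSMUSG00000022584.16). Region 3 (chr15:74988087-74989124), 64 bp upstream of an upstream start and 4704 bp before the main one, had 40 and 30 reads in control 1 and 2 and 98, 81 and 76 in HADA 1, 2 and 3. Control 3 had no peak there. Every HADA library was thus taller than either control peak, also over background, at 23.7 and 14.6 in control and 41.9, 40.7 and 33.4 in HADA. In a fit that left control 3 out, the difference was 0.68 ± 0.17 (SE, limma adjusted p = 0.0236). It was the only region of the 9 genes called higher in any of the fits that left 1 library out. Region 4 (chr15:74983571-74984246), 312 bp upstream of the main start, had 25, 31 and 28 reads in control, 30 in HADA 1 and no peak in HADA 2 and 3. Region 1 was listed in control 1 and 3 at 22 reads each and in no HADA library. Region 2 was listed in control 3 at 19 reads and in HADA 1 and 3 at 26 and 27. The close paralog Ly6c1 had no peak in any library. The number of Ly6c2 peaks per library was 3, 2 and 3 against 3, 1 and 2, which overlapped.

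F13a1, the A subunit of coagulation factor XIII, which cross-links fibrin, was near the limit of detection (gene chr13:37051152-37234277, minus strand, ENSMUSG00000039109.19). Region 1 (chr13:37233035-37234252), 96 bp upstream of its start, had 10, 12 and 12 reads in control and 11 in HADA 3. HADA 1 and 2 had no peak there, and their lists could hold no peak under 9 and 8 reads, so the control peaks were only a few reads above that limit. Region 2, in the fourth intron, had 11, 23 and 15 reads in control and 19 in HADA 3, but its summit sequence is a repeat. Region 3 was listed only in HADA 3, at 10 reads. F13a1 thus had 2 peaks in each control library and 0, 0 and 3 in HADA.

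Cx3cr1, the receptor for fractalkine by which patrolling monocytes persist along vessels, had 3 regions, of which 1 was called lower, 1 was listed in control alone and 1 was not called (chr9:119877749-119898945, minus strand, ENSMUSG00000052336.10). Region 1 (chr9:119897124-119897990), 35 bp upstream of the main start, had 29, 21 and 25 reads in control and 18, 17 and 18 in HADA. The groups were apart, at 13.7 ± 3.48 and 8.05 ± 0.439 over background (SD, n = 3 each), with a centred difference of −1.11 ± 0.18 (SE, limma adjusted p = 0.00914). Region 2 (chr9:119887598-119888113), in the first intron 9474 bp from the main start, had 51, 44 and 47 reads in control and no peak in HADA. The local background in control was 6.98 to 7.42 reads, and that of HADA is unknown there. Region 3 (chr9:119883730-119884467), in the same intron 13273 bp from the start, had 61, 57 and 54 reads in control and 63, 70 and 67 in HADA. Over background it stood at 31.1 ± 4.42 and 30.5 ± 4.22 (SD, n = 3 each). Its centred difference was −0.41 ± 0.17 (SE, limma adjusted p = 0.0900), and on the fold rank it was 0.41 with a limma adjusted p of 0.0986, so it had no direction that held across scales. Cx3cr1 had 3 peaks in each control library and 2 in each HADA library (exact permutation p = 0.1, the smallest that 3 against 3 can give, 0.9 after adjustment over the 9 genes).

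**Figure D4:**
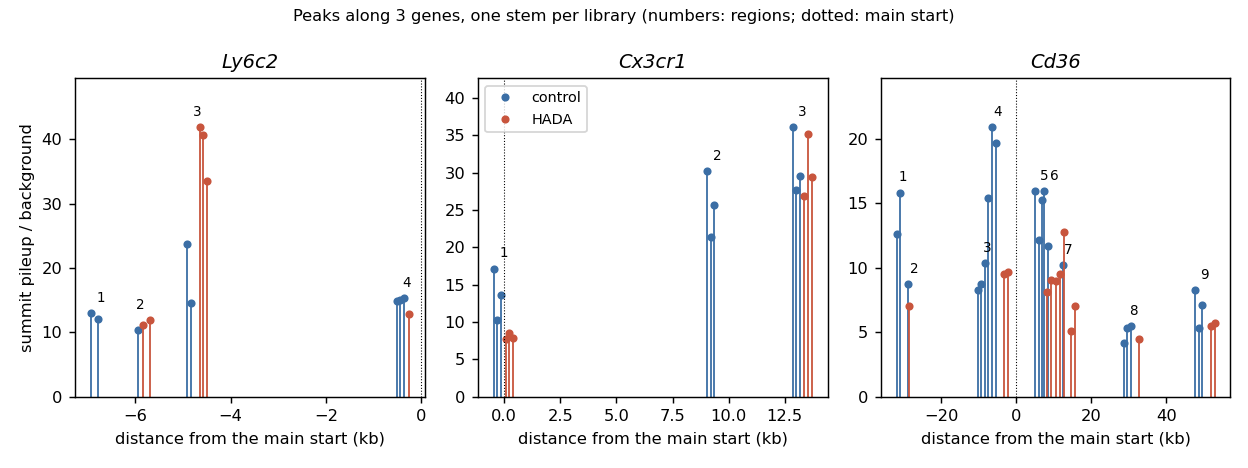
Summit pileup over the library background (vertical axis) against distance from the main start in kb (negative is upstream) for Ly6c2, Cx3cr1 and Cd36, with one stem per library (blue control, red HADA), nudged sideways for view, and region numbers above. Cx3cr1 region 2 has blue stems alone, Cx3cr1 region 3 has both groups at 26.9 to 36.1, and Ly6c2 region 3 has its tallest stems in red.

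Treml4, a receptor of the TREM family found on patrolling monocytes and some dendritic cells and macrophages, had the tallest patrolling region (gene chr17:48571323-48582388, plus strand, ENSMUSG00000051682.16). Region 1 (chr17:48570551-48571527) lay 208 bp upstream of the start, with its summit also within the annotated gene ENSMUSG00000135259. It had 101, 94 and 150 reads in control and 80, 45 and 41 in HADA. Every HADA library lay below every control library. The mean went from 62.5 ± 18.3 to 24.9 ± 8.33 over background (SD, n = 3 each), with a centred difference of −1.72 ± 0.30 (SE, limma adjusted p = 0.00951). On the fold rank its difference was −0.79 (limma adjusted p = 0.0481). Region 2 (chr17:48581188-48582300), in the last untranslated exon, had 23, 14 and 18 reads against 27, 15 and 13, and the groups overlapped. Its difference was −0.67 ± 0.27 (SE, limma adjusted p = 0.0806).

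Ace, the angiotensin-converting enzyme, had low peaks (gene chr11:105858469-105880790, plus strand, ENSMUSG00000020681.16). Region 1 (chr11:105858299-105859063), at the start and also within Gm11651, had 14, 13 and 10 reads in control and no peak in HADA. The HADA lists could hold no peak under 8 or 9 reads, so the control peaks were only a few reads above that limit. The other regions were each in 1 library: region 2 in control 1 at 16 reads, region 3 in HADA 2 at 8 and region 4 in control 1 at 15. Control libraries held 3, 1 and 1 peaks and HADA libraries 0, 1 and 0.

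Cd36, a scavenger receptor that takes up fatty acids and oxidised lipoproteins, had the most regions, 9 along a gene with 20 annotated starts (chr5:17986432-18094067, minus strand, ENSMUSG00000002944.17). Its peaks numbered 6, 9 and 6 in control and 3, 7 and 3 in HADA (exact permutation p = 0.3), and HADA 2 overlapped the control libraries. Region 3 (chr5:18062375-18062887) had 14, 18 and 19 reads in control, at a local background of 3.09 to 4.64 reads, and no peak in HADA, where that background is unknown. Region 4 (chr5:18059314-18059918), the tallest and 438 bp upstream of a start, had 26, 43 and 36 reads in control, 19 and 22 in HADA 2 and 3 and no peak in HADA 1. Without HADA 1 its difference was −1.30 ± 0.30 (SE, limma adjusted p = 0.0290). Region 5 had 27, 25 and 28 reads against 19 and 18 in HADA 1 and 2, and without HADA 3 its difference was −1.15 ± 0.22 (SE, limma adjusted p = 0.0347). Region 6 had 27 and 24 reads in control 1 and 2 and 21, 19 and 29 in HADA, and without control 3 its difference was −0.78 ± 0.22 (SE, limma adjusted p = 0.0311). These 3 fits each drop the library that lacked the peak, which at region 6 is a control library, and the raw values left there overlap between groups. Region 9 without HADA 1 was not called, at −0.63 ± 0.23 (SE, limma adjusted p = 0.0819). Region 7, 175 bp upstream of a start, held 21 reads in control 2 and 12 and 14 in HADA 1 and 2, and regions 1, 2, 8 and 9 were each missing from at least 1 library.

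The contrast between the classes was taken within each library, where depth cancels, as the mean over patrolling genes minus the mean over classical genes. Only Cx3cr1, Treml4 and Cd14 had a region in all 6 libraries, so Cd14 alone stood for the classical genes. Control libraries gave −1.24, −1.23 and −1.63 and HADA libraries −0.50, −0.31 and −0.46, with no overlap of the groups. The difference between groups was 0.94 on the log2 scale: Cd14 had lost more height than the mean of Cx3cr1 and Treml4. With regions in at least 3 libraries and absent peaks set at the smallest pileup the list could hold, a setting chosen after the data were seen, all 7 classical and patrolling genes entered. That limit was taken at the genome-wide background, which is at or below the local one, so an absent peak was set low. Control libraries then gave −0.13, −0.29 and −0.36 and HADA libraries −0.63, −0.15 and −0.74, which overlapped, with a difference of −0.25. With regions in every remaining library once control 3 was left out, where Ly6c2 region 3 enters on the classical side and Cd36 region 6 on the patrolling side, the difference was −0.35. No direction of the classical against the patrolling class held across these settings.

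Other genes of the same cells were read from lists of their own. Of all regions tested, 24.1% were lower and 17.9% higher. Of 12 factors and common genes of monocytes, 17 regions were tested, of which 11 were lower and 3 higher, with a median difference of −1.01. The lower ones included regions of Itgam, the integrin CD11b, at −1.70, Mpeg1, the pore-forming perforin-2, at −1.95 and Cd68, a lysosomal glycoprotein, at −1.48. The higher ones were another region of Mpeg1 at 0.97, one of Ms4a6c at 1.03 and one of Irf8, a factor that monocytes share with dendritic and B cells, at 1.42. Of 12 further patrolling genes, 21 regions were tested, with 10 lower, 3 higher and a median of −0.63. Regions of Ear2, a secreted ribonuclease, at −1.91, Fcgr4, an activating Fc receptor, at −2.17 and Cd300ld at −1.82 were lower, while the 3 higher regions were all of Pou2f2, a transcription factor also used by B cells, at 0.64 to 1.11. Of 8 further classical genes, 5 regions were tested, with 1 lower (Hp, haptoglobin, at −2.03), 2 higher (among them Ms4a4c at 0.90) and a median of −0.28. The counts of higher regions at the factors and common genes and at the further patrolling genes were not far from the share of all regions. With only 5 regions tested, neither were the counts at the further classical genes. Chil3 and Adgre4, which mark the classical and patrolling types, had no peak.

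Genes of other blood cells were read in the same libraries, against the 24.1% of all regions tested that were lower and the 17.9% that were higher. At the neutrophil list, 6 of 7 regions tested were lower and 0 higher, with a median of −1.85. The pileup over background, summed over its peaks, ranged from 296 to 831 in control libraries and 149 to 278 in HADA libraries, which did not overlap, and Camp and Ngp, genes of immature neutrophils, had no peak. At the B cell list all 7 regions tested were higher, with a median of 1.97 and summed levels of 52.5 to 558 in control and 1550 to 1625 in HADA. The same sums for the 9 monocyte genes were 74.5 to 122 against 44.9 to 69.2 at the shared genes and 214 to 252 against 89.3 to 130 at the patrolling genes, both apart, and 87.2 to 127 against 59.3 to 89.7 at the classical genes, which overlapped. They overlapped also at the other patrolling genes (908 to 1268 against 960 to 1114), the monocyte factors and common genes (889 to 1354 against 879 to 1124) and the other classical genes (155 to 232 against 227 to 246). Such sums also move with how many peaks were called, which at the B cell list was 24, 20 and 7 in control and 44, 39 and 42 in HADA, and at the neutrophil list 14, 13 and 20 against 15, 12 and 10. T cell regions were higher at 3 of 10 and lower at 0, and the 1 NK cell region tested was not called. Dendritic cell regions were lower at 1 of 10 and higher at 3. With so few regions, the T cell and dendritic counts were not far from those shares. The lists of platelet, erythroid, eosinophil and basophil, and endothelial genes had 1 to 3 regions tested each, with 1 of 2, 1 of 1, 1 of 3 and 0 of 3 higher and 0, 0, 2 and 1 lower. The platelet genes Ppbp, Gp9, Gp1ba and Treml1 had no peak, nor did the erythroid gene Alas2 and the endothelial genes Tek and Tie1. Of 12 housekeeping regions, 1 was lower and 1 higher, with a median of −0.14. The sums were also higher in every HADA library than in any control library at the T cell list (317 to 465 against 586 to 631), the NK cell list (11.5 to 47.4 against 50.4 to 90.2), the dendritic list (138 to 270 against 386 to 392) and the platelet list (16.4 to 25.3 against 37.8 to 41.9), and at the erythroid, eosinophil and basophil, and endothelial lists. At the housekeeping list they overlapped. On this scale, pileup over the genome-wide background, the median of all regions tested rose by 0.34 in HADA. No sum was taken over all regions, so these higher sums were not set apart from that shift. The part of these other cells in the differences at the monocyte genes was not tested.

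**Figure D5:**
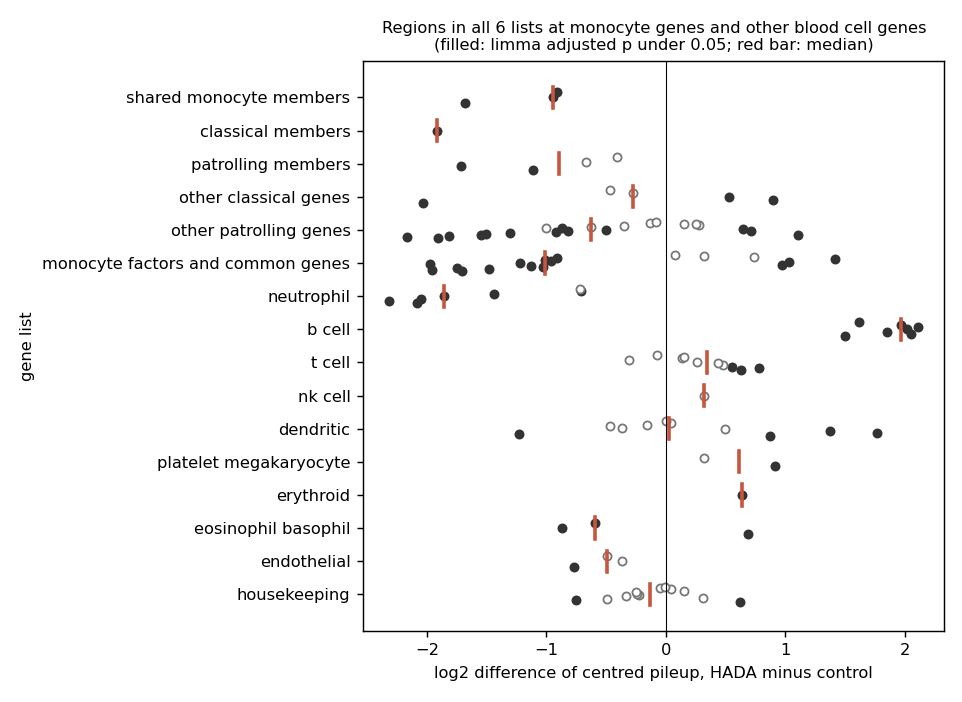
Log2 difference of centred pileup, HADA minus control (horizontal axis), for every region in all 6 libraries at the monocyte genes and at lists of other blood cell genes (rows), filled where the limma adjusted p was under 0.05, with the median of each list as a red bar. The monocyte and neutrophil lists lie mostly left of 0, and the B cell list, with a median of 1.97, lies right of it.

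The genes whose start regions followed the monocyte genes most closely over the 6 libraries were found among 11572 protein-coding genes by Pearson's correlation of centred log2 pileup. With 6 libraries that share a group split, these values are a description. Treml4 was closest to C5ar1, the receptor for complement C5a, and to Pram1 and Lypd6b (r = 0.999 each). Lyz2 was closest to Zfp503 (r = 0.999), Rxra and Mmp8, the neutrophil collagenase (r = 0.996 each). Cd14 was closest to Sqor, to Clec4e, the Mincle receptor for mycobacterial glycolipid (r = 0.998 each), and to Rnd1 (r = 0.997). Csf1r was closest to Lrrfip2, Or10aa1 and Rbpj (r = 0.999, 0.998 and 0.998). Cx3cr1 was closest to Ccdc159 and Tmem205, which share 1 region (r = 0.992), and to Naip5 (r = 0.987).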

How the data were processed

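Chromatin accessibility was profiled in 3 control and 3 HADA libraries, grouped and numbered as in the labels. Per the labels and methods, the authors used Trimmomatic for trimming, Bowtie2 for alignment to GRCm39, Picard against duplicates and MACS2 for peaks, with 1 list per library. Versions, MACS2 options and whether reads were shifted for Tn5 are not given in the sources used here. Each deposited peak has a fold over local background, −log10 values of its p-value and q-value, and a score. Total reads were not analysed here, and depth was read from the background pileup.

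MACS2 computes the fold as (pileup + 1) / (background + 1) and the p-value from a Poisson tail, so both were solved from the deposited values of each peak. Peaks sharing 1 bp were merged. Log2 pileups of regions in all 6 libraries were centred and compared with limma 3.58.1 in R 4.3.3 (Benjamini-Hochberg, threshold 0.05), after a test on simulated data. For single values, an exact permutation test, two-sided, compared the groups. The smallest pileup a list could hold was computed from its p-value limit at the genome-wide background. In thinned libraries, pileups were reduced at random to the lowest background. The authors' fold was used in the alternative on ranks.

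All 9 genes are named, with values for regions nearest a start, tallest, called or group-only. Other genes are the called regions of smallest p in each list, of which 1 is not reported here. The genes and lists were chosen with earlier results of these data known.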

Additional observations from a re-analysis of the deposited data

How the results depend on the processing

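With 3 libraries a group, each call rests on few values, and regions missing from 1 list could not enter the test of height. Across the alternatives, the calls lower at Lyz2 region 1, Cd14 and Cx3cr1 region 1 were lost on the rank of the deposited fold alone, and that at Treml4 region 1 in none of those run. Lyz2 region 1 had no value at a −log10 q of at least 5 or on equal numbers of the strongest peaks, nor did Cx3cr1 region 1 on the latter. With a start window of 1 kb Lyz2 region 1 was no longer a region of the gene, which left 5 monocyte regions lower. On the fold rank 1146 of all regions were lower and 1573 higher, 1 monocyte region was lower, the contrast of patrolling with classical genes was 0.23, and the sign turned at Csf1r region 1 (0.082), at Cx3cr1 region 3 (0.41) and for the mean height at Cx3cr1 (0.065). Over the genome-wide background, 7437 regions were higher. Leaving out 1 library gave 2021 to 5907 regions lower and 737 to 4810 higher, both fewest without HADA 2 (3569 lower without HADA 1, and 1869 and 1678 higher without HADA 1 and HADA 3), with 4 to 7 monocyte regions lower and 0 to 1 higher (Ly6c2 region 3, without control 3). It gave 3 to 5 control-only regions and a contrast of −0.35 (without control 3) to 1.01. Treml4 region 2 became a call without control 2 (limma adjusted p = 0.0470) or HADA 1 (0.0494), and Csf1r region 1 lost its call in thinned libraries (0.0526). Control-only regions fell to 1 at a −log10 q of at least 5 and to 1 with starts only. The mean number of peaks at the 9 genes was lower in HADA by 7, and the difference was −9.33 with the same number of strongest peaks, −8.33 after thinning and −3.67 with starts only. With absent peaks at the calling limit, the contrast was −0.25. The replicate numbers did not pair the libraries (r = −0.08, 0.08 and −0.38 for same numbers). With a replicate block, 2991 regions were higher and 5660 lower, and the monocyte calls stayed at 6. The cause of these changes was not tested.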
